A study of Mus musculus with 12 samples.

Results

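The genes described here are 8 core components of PI3K, Akt and mTOR signalling, out of 43432 genes in the count table of mouse sciatic nerve. They are *Pik3r1*, *Akt1*, *Akt2*, *Tsc1*, *Tsc2*, *Mtor*, *Rptor* and *Rictor*. They were picked by symbol as parts of one pathway. The rule uses none of their levels, but it was set with earlier results of these data known. All 8 passed the filter on low counts that left 17257 genes for testing. RNA with a polyA tail was sequenced from 1 sciatic nerve of each of 12 mice at 1 month of age, in 3 groups of 4 described as 3 males and 1 female each. The groups were WT control (*Mtmr2* wt/wt, no treatment), *Mtmr2* KO (*Mtmr2* -/-, no treatment) and *Mtmr2* KO niacin (*Mtmr2* -/-, niacin). The labels give the treatment of the former 2 groups as none, while the study's text calls the *Mtmr2* KO mice of this comparison vehicle treated, so untreated here means without niacin. Niacin was injected intraperitoneally at 120 mg/kg from postnatal day 10 to day 21, and a slow-release form, Niacin-SR, was then given by gavage until day 30. The *Mtmr2* KO serves as a model of Charcot-Marie-Tooth neuropathy type 4B1 with aberrant myelin, and no WT mice given niacin are among the libraries. Libraries are named by the numbers of their labels, 4497 to 4500 (WT control), 4501 to 4504 (*Mtmr2* KO) and 4505 to 4508 (*Mtmr2* KO niacin).

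In Schwann cells, neuregulin on the axon activates ErbB receptors, which recruit class I PI3K, and the phosphoinositide that PI3K makes brings the kinase Akt to the membrane. Akt inhibits the Tsc1-Tsc2 complex, a brake on the GTPase Rheb, and Rheb switches on mTOR in complex 1. mTOR also forms complex 2, which phosphorylates Akt. The pathway is known for promoting myelin growth in peripheral nerve. MTMR2 is itself a phosphoinositide phosphatase, acting on lipids other than the main product of class I PI3K. The pathway is controlled largely by phosphorylation, which RNA levels do not measure.

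Read counts per library ran from 20763951 to 33191106. All 10 markers of myelinating Schwann cells were detected, with a summed level of 64734 to 121830 CPM (each count relative to the library total, scaled by edgeR's TMM method) across the 12 libraries. By group it was 92601 to 117370 CPM (median 103575) in WT control and 88966 to 121830 CPM (median 115870) in *Mtmr2* KO. With niacin it was lower, at 64734 to 106140 CPM (median 85794), overlapping both other groups, and its part in the results was not tested. *Mtmr2*, the inactivated gene, was at 128 to 161 CPM in WT control and at 66.8 to 84.7 CPM in 7 of the 8 libraries labelled *Mtmr2* -/-, whereas the library labelled *Mtmr2* KO 4503 was at 143 CPM, within the WT control range. Log2 fold changes from edgeR that rest on the *Mtmr2* KO group are therefore also given without 4503. All 10 skeletal muscle markers were detected, and their summed level was at most 83.0 CPM in WT control and 72.0 CPM in *Mtmr2* KO but 83.9 to 3541 CPM (median 1809) in the niacin-treated libraries, with 83.9 CPM in 4505, 119 CPM in 4508, 3499 CPM in 4506 and 3541 CPM in 4507. The 10 white adipocyte markers, all detected, summed to 2983 to 3861 CPM in WT control, and to 833 to 4857 CPM in the *Mtmr2* KO and 2281 to 4725 CPM in the treated group. The part of fat RNA in the results was not tested. In bulk nerve, fewer cells of a type and less RNA per cell cannot be told apart.

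The promoters of both pairs of partner genes whose balance is described further on are shown first. *Rptor* encodes raptor, the subunit that defines mTOR complex 1, and *Rictor* encodes the subunit that defines complex 2. *Tsc1* encodes hamartin and *Tsc2* tuberin, which together form the Tsc brake. The sequences are the 250 bases before the gene start in RefSeq (GRCm38.p6), read 5′ to 3′ on the strand of the gene: chr11:119602655-119602904 on the + strand for *Rptor*, chr15:6708131-6708380 on the + strand for *Rictor*, chr2:28640983-28641232 on the + strand for *Tsc1* and chr17:24632628-24632877 on the - strand for *Tsc2*. Capitals mark matches to 5 motifs searched on both strands. These were the E-box CACGTG, the GC box GGGCGG, the FoxO motif GTAAACA, the CRE TGACGTCA and the CCAAT box CCAAT.
Rptor: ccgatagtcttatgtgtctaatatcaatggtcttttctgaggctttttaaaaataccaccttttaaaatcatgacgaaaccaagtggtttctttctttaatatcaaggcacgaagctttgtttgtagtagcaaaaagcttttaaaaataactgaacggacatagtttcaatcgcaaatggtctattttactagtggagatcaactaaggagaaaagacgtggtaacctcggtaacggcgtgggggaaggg
Rictor: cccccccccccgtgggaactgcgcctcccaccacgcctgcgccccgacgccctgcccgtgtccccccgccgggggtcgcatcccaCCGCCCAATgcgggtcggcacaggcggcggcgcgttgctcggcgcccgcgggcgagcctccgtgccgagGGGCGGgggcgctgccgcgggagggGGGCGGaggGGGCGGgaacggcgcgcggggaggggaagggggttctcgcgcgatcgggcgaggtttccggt
Tsc1: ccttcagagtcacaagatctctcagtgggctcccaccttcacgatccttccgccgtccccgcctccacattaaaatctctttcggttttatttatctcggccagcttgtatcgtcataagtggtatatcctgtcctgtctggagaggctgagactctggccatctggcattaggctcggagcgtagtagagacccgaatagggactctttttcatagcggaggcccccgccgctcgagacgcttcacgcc
Tsc2: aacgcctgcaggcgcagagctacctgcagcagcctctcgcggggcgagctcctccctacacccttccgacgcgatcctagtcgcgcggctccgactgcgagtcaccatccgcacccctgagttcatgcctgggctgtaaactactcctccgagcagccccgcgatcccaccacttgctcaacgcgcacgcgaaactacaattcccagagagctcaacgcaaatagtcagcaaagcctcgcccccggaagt

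The *Rptor* and *Rictor* windows are very different in composition. G and C made up 37.6% of the *Rptor* window and 81.2% of the *Rictor* window, against a median of 52.4% over 32851 RefSeq windows of the same length. The *Rptor* window held 9 CpG dinucleotides and none of the 5 motifs, while the *Rictor* window held 40 CpG dinucleotides, 4 GC boxes and 1 CCAAT box that shares bases with a GC box. At least 1 GC box was found in 32.7% and at least 1 CCAAT box in 33.8% of all windows, so holding 1 of either is not unusual. How many windows hold 4 GC boxes was not counted. The *Tsc1* and *Tsc2* windows had 54.4% and 62.8% G and C and held none of the motifs. RefSeq gives windows for all 8 genes, and the E-box, present in 6.02% of all windows, and the CRE, present in 1.55%, were in none of those of the 8 at their most upstream start. The FoxO motif, in 3.17% of all windows, was in that of *Akt1*. A match of letters is a description and not evidence of binding.

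Among the 8 genes, transcripts of *Akt1*, *Pik3r1* and *Akt2* were the most abundant. Levels per kilobase (CPM divided by the length of the longest transcript in GENCODE M21) in WT control were 68.6 ± 3.14 (SD, n = 4 for all levels here) for *Akt1*, 56.8 ± 6.73 for *Pik3r1* and 41.2 ± 1.40 for *Akt2*. These lay at the 95.4th, 94.4th and 91.7th percentile of 17147 genes with a known length. *Tsc2* followed at 12.3 ± 1.42 CPM per kilobase, and *Rptor* at 8.51 ± 0.75. *Mtor* at 6.71 ± 0.81 and *Tsc1* at 6.45 ± 0.58 CPM per kilobase overlapped, and *Rictor* was the lowest at 4.24 ± 0.50, at the 47.9th percentile. The 4 libraries of *Akt1* and of *Pik3r1* came close without overlapping, at no less than 65.1 and no more than 64.4 CPM per kilobase, and so did those of *Rptor* and *Mtor*, at no less than 7.57 and no more than 7.54. The order depends on the length used: per kilobase of all annotated exons, *Rptor* was at 4.17, below *Mtor* at 5.68 and next to *Tsc1* at 4.20. *Tsc2* (chr17:24595816-24632630, GRCm38) shares exonic bases with *Pkd1* on the opposite strand, and the sources used here do not say how strand was treated in counting, so reads of these genes may not be fully separated.

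**Figure D1:**
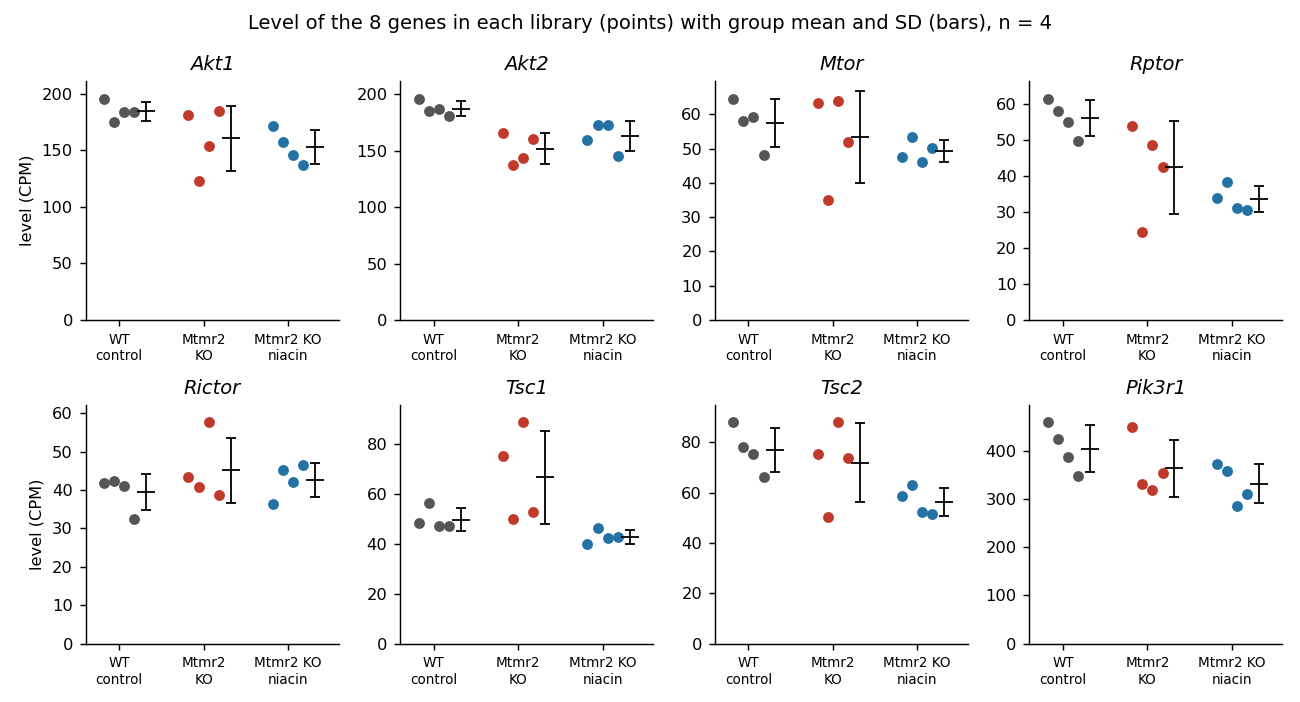
Level in CPM (y axis, from 0) of the 8 genes in the 12 libraries, by group (x axis). Points are libraries, and the bar beside them is the mean with its SD (n = 4). *Rptor* of all 4 niacin-treated libraries lies below all 4 WT control libraries, and *Tsc1* of *Mtmr2* KO spans 49.9 to 88.5 CPM.

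In *Mtmr2* KO against WT control, which asks what loss of *Mtmr2* does in the untreated nerve, no gene of the core passed the test. With p-values adjusted over the 17257 genes by the method of Benjamini and Hochberg, edgeR called 0 of the 8, where 0.267% of all genes were called. DESeq2 also called 0, both over all 12 libraries, where it called 3.77% of all genes, and over only these groups, where it called 2.42%. limma-voom called 0 of the 8 and 0.626% of all genes. At an unadjusted p under 0.05 in edgeR there were 2 of the 8, *Akt2* and *Tsc1*, beside 17.2% of all genes. The log2 fold changes of the 8 had a median of -0.13, beside 0.03 over all genes, and 6 of the 8 were below 0, as were 46% of all genes. Groups did not overlap for *Akt2* alone, which was lower, as were 5.46% of all genes. Summed levels of markers did not overlap either for non-myelinating Schwann cells (7 of 7 detected, 478 to 589 CPM in WT control and 627 to 949.8 CPM in *Mtmr2* KO), sensory neurons (7 of 8 passed the filter, 26.8 to 35.9 and 39.3 to 161 CPM) or neutrophils (3 of 6 passed, 0.40 to 0.68 and 1.203 to 15.6 CPM), and their part in the differences was not tested. Of the non-myelinating Schwann cell markers, *Scn7a* (265 to 325 CPM in WT control and 333 to 748 CPM in *Mtmr2* KO) and *Cadm2* (26.7 to 33.2 and 38.0 to 48.6 CPM) did not overlap. The others, *Ncam1*, *L1cam*, *Ngfr*, *Cdh2* and *Gfap*, overlapped. Sums of the 10 adipocyte markers overlapped, but *Lep* was at 39.6 to 77.7 CPM in WT control and 9.17 to 16.3 CPM in *Mtmr2* KO. *Plin1* was at 157 to 242 and 26.0 to 85.3 CPM and *Lipe* at 143 to 192 and 31.8 to 87.8 CPM. The other adipocyte markers overlapped. Of the 10, edgeR called *Lep* and *Plin1* as lower (adjusted p = 0.0364 and 0.0448), and the part of fat RNA was not tested.

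*Akt2* (ENSMUSG00000004056, chr7:27591552-27640826, + strand) encodes the Akt paralogue best known for insulin-stimulated glucose uptake. It was at 196, 185, 187 and 181 CPM in WT control and at 166, 137, 144 and 161 CPM in *Mtmr2* KO. All 4 *Mtmr2* KO libraries were below the lowest WT control library. The log2 fold change was -0.30 (SE 0.11, unadjusted 95% interval -0.55 to -0.06, adjusted p = 0.203 from edgeR), and the exact permutation test, two-sided over the 70 ways to draw 4 of 8 libraries, gave p = 0.0286, the smallest it can give. Any groups of 4 that do not overlap give this p, so it adds nothing to the lack of overlap. The exact p of single genes are not adjusted for their 24 tests. Without 4503 the log2 fold change was -0.28 (adjusted p = 0.252 from edgeR). With each library corrected for the GC content and length of transcripts it was -0.13, with the same sign.

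*Tsc1* (ENSMUSG00000026812, chr2:28641228-28691167, + strand) differed in the other direction. It was at 48.5, 56.3, 46.9 and 47.0 CPM in WT control and 75.0, 49.9, 88.5 and 52.7 CPM in *Mtmr2* KO. Libraries 4501 and 4503 were above every WT control library, while 4502 and 4504 lay inside the WT control range. The log2 fold change was 0.42 (SE 0.17, interval 0.06 to 0.78, adjusted p = 0.218 from edgeR; exact permutation p = 0.171), and without 4503, the library with *Mtmr2* in the WT control range, it was 0.25 (adjusted p = 0.368 from edgeR). *Tsc2* (ENSMUSG00000002496), the partner, did not show the same pattern, at 87.9, 78.1, 75.6 and 66.3 CPM in WT control and 75.5, 50.3, 87.9 and 74.0 CPM in *Mtmr2* KO (log2 fold change -0.10, interval -0.44 to 0.24, adjusted p = 0.776 from edgeR).

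*Rptor* (ENSMUSG00000025583, chr11:119602905-119899576, + strand) was at 61.5, 58.1, 55.0 and 49.9 CPM in WT control and 54.1, 24.4, 48.7 and 42.5 CPM in *Mtmr2* KO. The groups overlapped through 4501, and 4502 was far below the rest. The log2 fold change of -0.40 (interval -0.82 to 0.01, adjusted p = 0.303 from edgeR; exact permutation p = 0.0571) was -0.22 without 4502. *Rictor* (ENSMUSG00000050310, chr15:6708379-6800401, + strand), by contrast, was at 41.8, 42.4, 41.2 and 32.5 CPM in WT control and 43.3, 40.9, 57.6 and 38.7 CPM in *Mtmr2* KO (log2 fold change 0.19, interval -0.12 to 0.51, adjusted p = 0.513 from edgeR). *Mtor* (ENSMUSG00000028991, chr4:148448611-148557683, + strand), the kinase of both complexes, ranged from 48.0 to 64.5 CPM in WT control and from 35.0 to 63.7 CPM in *Mtmr2* KO (log2 fold change -0.10, interval -0.47 to 0.26, adjusted p = 0.779 from edgeR).

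*Akt1* (ENSMUSG00000001729, chr12:112653821-112674884, - strand), the Akt paralogue known for cell growth and survival, was at 196, 175, 184 and 184 CPM in WT control and 181, 123, 154 and 185 CPM in *Mtmr2* KO. Libraries 4501 and 4504 lay inside the WT control range, and 4502 and 4503 below it (log2 fold change -0.20, interval -0.50 to 0.10, adjusted p = 0.484 from edgeR). *Pik3r1* (ENSMUSG00000041417, chr13:101680563-101768217, - strand) encodes the regulatory subunit that holds the catalytic subunit of class I PI3K and docks it on activated receptors. It ranged from 347 to 458 CPM in WT control and from 319 to 449 CPM in *Mtmr2* KO (log2 fold change -0.15, interval -0.49 to 0.18, adjusted p = 0.633 from edgeR). The intervals of *Akt1*, *Pik3r1*, *Mtor*, *Tsc2*, *Rptor* and *Rictor* all include 0, and none of these intervals shows that the groups are alike. Without 4503 the log2 fold changes were -0.48 for *Rptor*, 0.05 for *Rictor*, -0.20 for *Mtor*, -0.18 for *Akt1*, -0.21 for *Tsc2* and -0.10 for *Pik3r1*. None was called in that fit, which called 0.0344% of all genes. Without 4502, the lowest library for most of these genes, they were -0.22 for *Rptor*, 0.24 for *Rictor*, 0.05 for *Mtor*, -0.09 for *Akt1*, 0.04 for *Tsc2* and -0.12 for *Pik3r1*. That of *Akt1* was -0.020 with the correction for GC content and length.

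The *Mtmr2* KO libraries varied most among themselves. The median SD of the log2 level of the 8 genes was 0.31 in that group, beside 0.15 in WT control and 0.14 with niacin. Over all genes these were 0.40, 0.16 and 0.22. Library 4502 was lowest of its group for *Akt1*, *Akt2*, *Mtor*, *Rptor*, *Tsc1* and *Tsc2*, and its deviation from the WT control mean had a median of -0.52 over the 8 genes, beside 0.00 over all genes. *Rptor* deviated most there, at -1.19. The curve of level against GC content and length of transcripts, described further on, stood in 4502 at -0.52 at the values of *Rptor*. It was -0.45 at those of *Mtor* and *Tsc2*, -0.43 at those of *Akt1*, -0.41 at those of *Akt2* and -0.34 at those of *Tsc1*. At those of *Rictor* and *Pik3r1* it was 0.05 and -0.06. In WT control this curve ran from -0.11 to 0.28 over the 8 genes. Library 4502 also had the lowest summed level of myelinating Schwann cell markers in its group, 88966 CPM, and the highest of adipocyte markers, 4857 CPM. Its endothelial markers were the lowest of all 12 libraries, at 215.5 CPM, and its summed markers of non-myelinating Schwann cells (949.8 CPM), sensory neurons (161 CPM) and macrophages (772 CPM) the highest of all 12. Of the first of these sums, *Scn7a* made up 748 CPM. *Gfap* and *Cadm2* were also above the WT control range in 4502, while *Ncam1*, *L1cam*, *Ngfr* and *Cdh2* were below it. Among the *Mtmr2* KO libraries only 4502 had high *Xist*, the transcript used below as a covariate for sex. It was at 687 CPM there and at 3.00, 5.99 and 4.52 CPM in 4501, 4503 and 4504. Values without 4502 therefore also leave out the only library of the group with high *Xist*. The part of these in the low values of 4502 was not tested.

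**Figure D2:**
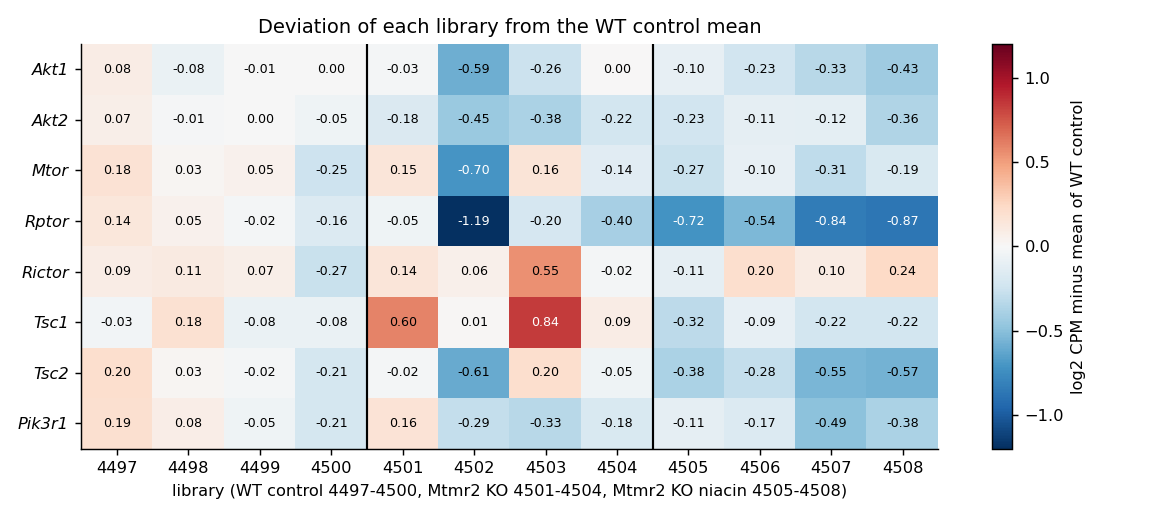
Deviation of each library (columns) from the WT control mean, in log2 CPM (colour and printed value), for the 8 genes (rows). *Rptor* is at -1.19 in library 4502, and *Tsc1* is at 0.84 in library 4503.

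In niacin-treated against untreated *Mtmr2* KO mice, which asks what the treatment changed in the mutant nerve, the clearest difference was in *Tsc1*. The edgeR test called 0 of the 8 genes, beside 1.43% of all genes, and 0 of the 8 and 0% of all genes when fitted on only these groups. DESeq2 over all 12 libraries called 1 (*Tsc1*) and 6.42% of all genes, and over only these groups 0 and 2.5%. limma-voom called 3 (*Tsc1*, *Rptor* and *Tsc2*, all lower) and 11.6% of all genes. At an unadjusted p under 0.05 there were 2, *Tsc1* and *Tsc2*, beside 20.1% of all genes. The median log2 fold change of the 8 was -0.13, beside -0.04 over all genes, with 7 of the 8 below 0, as were 54.1% of all genes. This comparison and the former share the *Mtmr2* KO libraries, so opposite signs in both are not independent.

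*Tsc1* was at 39.8, 46.4, 42.4 and 42.5 CPM in the niacin-treated libraries, against 75.0, 49.9, 88.5 and 52.7 CPM in *Mtmr2* KO. Every treated library was below every untreated one, as for 3.4% of all genes in this direction. Skeletal muscle markers did not overlap between these groups either, at 83.9 to 3541 CPM with niacin and 29.3 to 72.0 CPM in *Mtmr2* KO, and their part in the difference was not tested. The log2 fold change was -0.64 (SE 0.17, interval -0.997 to -0.278, adjusted p = 0.0754 from edgeR; exact permutation p = 0.0286, the smallest possible). It was -0.77 without 4502 (adjusted p = 0.00634 from edgeR, a fit that called 23.6% of all genes), -0.73 without 4504 (adjusted p = 0.0412, with 2.87% of all genes called), and -0.47 without 4503 (adjusted p = 0.18, with 0.0746% of all genes called). With the correction for GC content and length it was -0.49 (adjusted p = 0.0451 from edgeR, with 2.86% of all genes called).

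*Tsc2* was at 58.7, 63.0, 52.2 and 51.6 CPM with niacin. These were below the untreated libraries 4501, 4503 and 4504 but not below 4502 (log2 fold change -0.35, interval -0.69 to -0.01, adjusted p = 0.234 from edgeR; exact permutation p = 0.143). With the correction for GC content and length it was -0.16, and without 4502, in the fit that called 23.6% of all genes, it was -0.50 (adjusted p = 0.0136 from edgeR). *Rptor* was at 34.0, 38.5, 31.2 and 30.7 CPM with niacin, again below 4501, 4503 and 4504 and above 4502 (log2 fold change -0.34, interval -0.75 to 0.08, adjusted p = 0.349 from edgeR). Without 4502 the difference in *Rptor* was -0.54 (adjusted p = 0.00976 from edgeR), and with the correction over all libraries it was -0.08.

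The other 5 genes differed little, with log2 fold changes from -0.13 (*Pik3r1*) to 0.10 (*Akt2*) and adjusted p from 0.652 to 0.817 in edgeR. *Akt1* was at 172, 157, 146 and 137 CPM with niacin, within the 123 to 185 CPM of the untreated mutants. *Akt2* was at 160, 173, 173 and 146 CPM and overlapped the untreated group, with an interval of the log2 fold change from -0.15 to 0.35. *Rictor*, at 36.4, 45.1, 42.0 and 46.5 CPM, had an interval from -0.40 to 0.23. *Mtor* ranged from 46.2 to 53.3 CPM and *Pik3r1* from 286 to 372 CPM. Without 4503 the log2 fold changes were -0.26 for *Rptor*, -0.24 for *Tsc2* and between -0.19 and 0.08 for these 5 genes. None was called in that fit, which called 0.0746% of all genes. Without 4502 those of the 5 ran from -0.29 (*Mtor*) to 0.04 (*Akt2*).

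**Figure D3:**
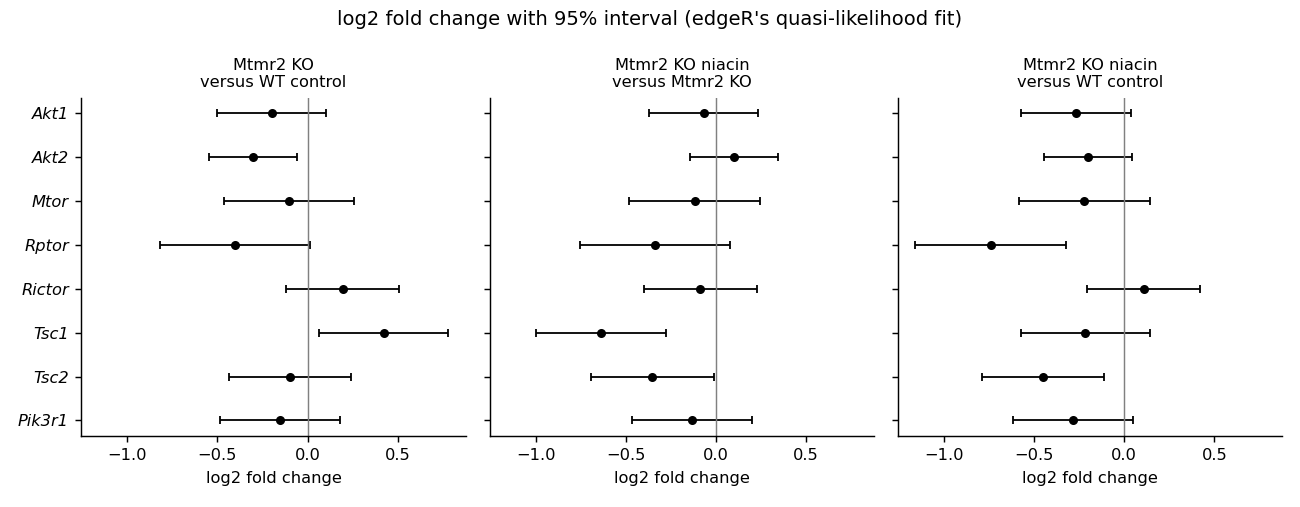
log2 fold change (x axis) of the 8 genes in the 3 comparisons, as points with unadjusted 95% intervals from edgeR's quasi-likelihood fit. The interval of *Tsc1* with niacin against *Mtmr2* KO runs from -0.997 to -0.278 and that of *Rptor* with niacin against WT control from -1.16 to -0.32.

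In niacin-treated *Mtmr2* KO against WT control mice, which differ in both genotype and treatment, *Rptor* differed most. The edgeR test called 0 of the 8 genes, and it called 0% of all genes. Fitted on only these groups, without the more variable *Mtmr2* KO libraries, edgeR called 3 (*Akt1*, *Rptor* and *Tsc2*), and it called 33.9% of all genes. DESeq2 called 1 over all 12 libraries (*Rptor*), beside 7.56% of all genes, and 3 over only these groups (*Akt1*, *Rptor* and *Tsc2*), beside 37.8%. limma-voom called 5 (*Akt1*, *Mtor*, *Rptor*, *Tsc2* and *Pik3r1*), beside 42.4% of all genes. Each of these was lower with niacin, and the shares of the 8 are not far from those of all genes in the fits that called many. At an unadjusted p under 0.05 there were 2, *Rptor* and *Tsc2*, beside 24.7% of all genes. The groups did not overlap for 5 of the 8 genes, *Akt1*, *Akt2*, *Rptor*, *Tsc1* and *Tsc2*, all lower with niacin, where 16.6% of all genes were lower without overlap. Summed marker levels did not overlap between these groups for endothelial cells (6 of 6 detected, 239 to 360 CPM with niacin and 458 to 511 CPM in WT control), sensory neurons (7 of 8 passed the filter, 47.0 to 61.6 and 26.8 to 35.9 CPM) and skeletal muscle, and their part in the differences was not tested. The median log2 fold change of the 8 was -0.25, beside 0.02 over all genes, and *Rictor* alone was above 0, with 48.5% of all genes below 0.

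*Rptor* was at 34.0, 38.5, 31.2 and 30.7 CPM with niacin against 49.9 to 61.5 CPM in WT control. The highest treated library was below the lowest WT control library. Skeletal muscle markers summed to 83.9 and 119 CPM in 4505 and 4508 and to 3499 and 3541 CPM in 4506 and 4507, and their part in the difference was not tested. The log2 fold change was -0.74 (SE 0.19, interval -1.16 to -0.32, adjusted p = 0.0896 from edgeR; exact permutation p = 0.0286). Without 4502, a library of neither group, the adjusted p was 0.00455 in edgeR at a log2 fold change of -0.76, where 21.6% of all genes were called. *Tsc2* came next at -0.45 (interval -0.79 to -0.11, adjusted p = 0.132 from edgeR; exact permutation p = 0.0286), its treated libraries at 51.6 to 63.0 CPM and its WT control libraries at 66.3 to 87.9 CPM.

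*Akt1* was -0.27 on the log2 scale (interval -0.57 to 0.04, adjusted p = 0.243 from edgeR), with the highest treated library at 172 CPM and the lowest WT control library at 175 CPM. *Akt2* was at -0.20 (interval -0.45 to 0.04, adjusted p = 0.275) and *Tsc1* at -0.21 (interval -0.57 to 0.14, adjusted p = 0.421), each with an exact permutation p of 0.0286. That p follows from the lack of overlap and is not adjusted for the 24 exact tests of single genes. *Pik3r1*, at -0.29 (interval -0.62 to 0.05, adjusted p = 0.253), and *Mtor*, at -0.22 (interval -0.58 to 0.14, adjusted p = 0.412), overlapped between the groups. *Rictor* was at 0.11 (interval -0.21 to 0.42, adjusted p = 0.661).

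These differences moved with the composition of the transcripts. The longest transcripts of *Akt1*, *Akt2*, *Mtor*, *Rptor*, *Tsc1* and *Tsc2* have 51.7% to 59.7% G and C, and those of *Rictor* and *Pik3r1* 42.5% and 44.9%. Over all genes with a known transcript, a curve of level against GC content and length was fitted to each library and taken out as an offset, a correction chosen after seeing the data. Between niacin-treated and WT control libraries this curve alone gave a log2 difference of -0.42 at the values of *Rptor*, -0.35 at those of *Akt1* and *Tsc2*, -0.34 at those of *Mtor*, -0.31 at those of *Akt2* and -0.24 at those of *Tsc1*, but 0.04 at those of *Rictor* and -0.03 at those of *Pik3r1*. After the correction the log2 fold change of *Rptor* was -0.32 (adjusted p = 0.116 from edgeR) and that of *Tsc2* was -0.10, while *Akt1* (0.08), *Akt2* (0.10), *Mtor* (0.12) and *Tsc1* (0.02) changed sign. What gives rise to the curve was not tested.

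**Figure D4:**
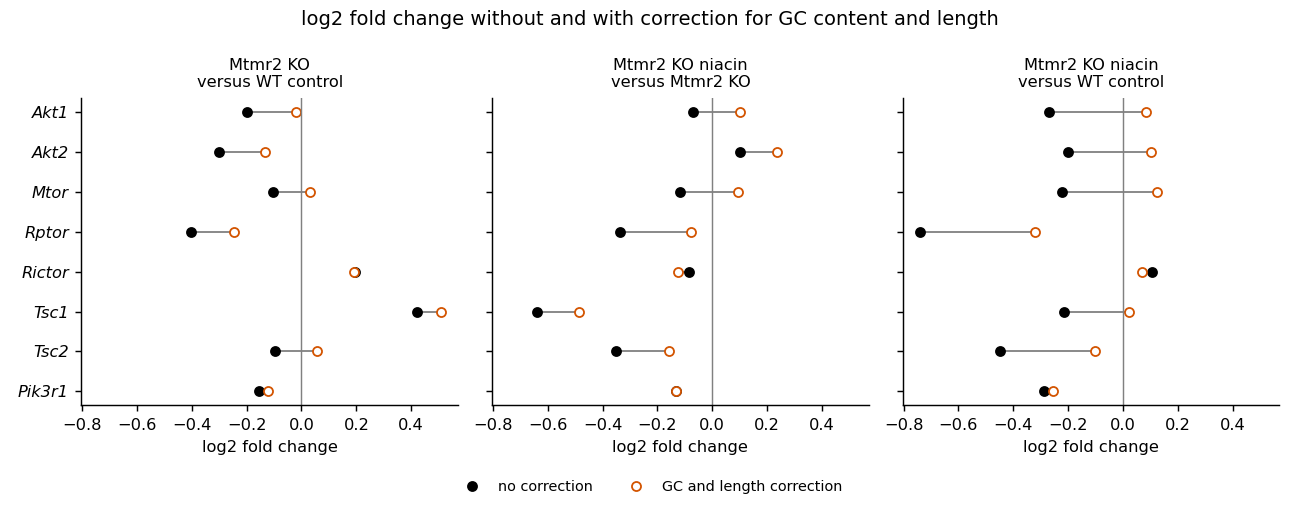
log2 fold change (x axis) of the 8 genes in the 3 comparisons from edgeR without (filled) and with (open) the correction for GC content and length of transcripts. In niacin-treated against WT control mice *Rptor* goes from -0.74 to -0.32 and *Akt1* from -0.27 to 0.08, while *Pik3r1* hardly moves.

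Ratios of partner genes within a library do not depend on how libraries are scaled. The balance of raptor to rictor transcripts was lower in both groups of mutants. The log2 ratio of *Rptor* to *Rictor* counts was 0.56, 0.45, 0.42 and 0.62 in WT control, 0.32, -0.74, -0.24 and 0.13 in *Mtmr2* KO and -0.10, -0.23, -0.43 and -0.60 with niacin. All 8 mutant libraries were below all 4 WT control libraries. Per kilobase of transcript, *Rptor* stood at 2.02 ± 0.13 (SD, n = 4) times *Rictor* in WT control, at 1.34 ± 0.40 times in *Mtmr2* KO and at 1.13 ± 0.17 times with niacin. The difference in log2 ratio was -0.64 for *Mtmr2* KO and -0.85 for niacin-treated mice against WT control (exact permutation p = 0.0286 each, the smallest possible; adjusted p = 0.129 over 9 tests, so neither passes), and -0.21 between niacin-treated and *Mtmr2* KO mice (exact permutation p = 0.457). Leaving out 4502, the lowest library at -0.74, would move the last of these differences further below 0.

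The same ratio was less different after the correction for GC content and length. The *Mtmr2* KO libraries still lay below all WT control libraries, with a difference of -0.43 (exact permutation p = 0.0286, adjusted p = 0.257). The niacin-treated libraries then overlapped WT control, with a difference of -0.39 (exact permutation p = 0.0857). Without 4503 the uncorrected difference between *Mtmr2* KO and WT control was -0.61, and without 4502 it was -0.44.

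The log2 ratio of *Tsc1* to *Tsc2* counts was -0.86, -0.47, -0.69 and -0.50 in WT control, -0.01, -0.01, 0.01 and -0.49 in *Mtmr2* KO and -0.56, -0.44, -0.30 and -0.28 with niacin. The *Mtmr2* KO libraries 4501, 4502 and 4503 had nearly equal counts of both genes, although *Tsc1* itself was high only in 4501 and 4503, and 4504 was among the WT control libraries. The difference between *Mtmr2* KO and WT control was 0.50 (exact permutation p = 0.0571, adjusted p = 0.171 over 9 tests) and that between niacin-treated and *Mtmr2* KO mice was -0.27 (exact permutation p = 0.114, adjusted p = 0.206). Without 4503 they were 0.46 and -0.22. *Akt1* and *Akt2* were counted nearly equally in every library, with log2 ratios from -0.24 to 0.20, and their ratio differed between groups by 0.09, -0.16 and -0.07 in the 3 comparisons (exact permutation p from 0.229 to 0.371). In *Mtmr2* KO it was 0.13, -0.16, 0.10 and 0.20, and only 4502 was not above the highest WT control library at 0.03. With niacin it was 0.11, -0.14, -0.24 and -0.08. Leaving out 4502 would move the first difference further from 0, and leaving out 4505 the third.

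**Figure D5:**
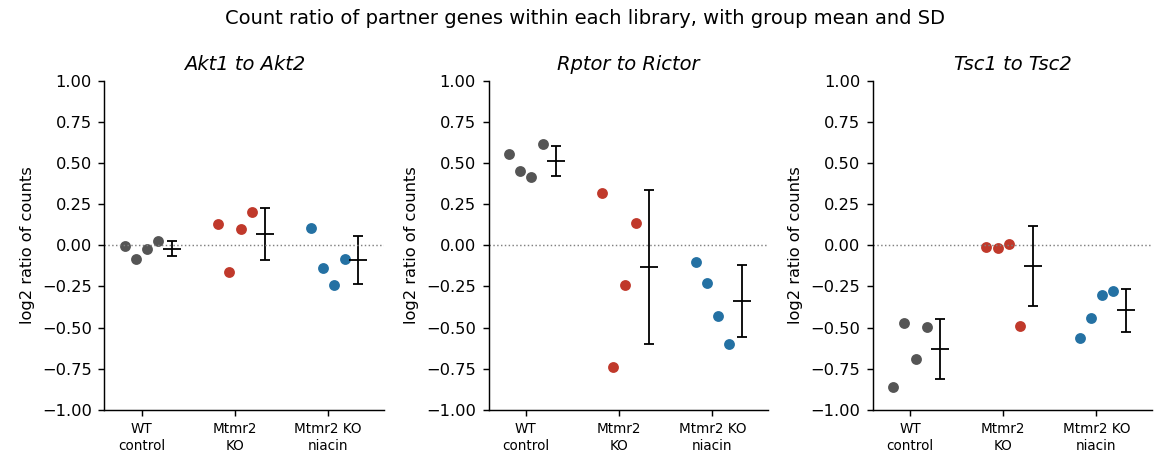
log2 ratio of counts (y axis) of partner genes within each library, by group (x axis), as points with the group mean and SD (n = 4). All *Mtmr2* KO and niacin-treated libraries lie below WT control for *Rptor* to *Rictor*, and library 4504 is apart from the other *Mtmr2* KO libraries for *Tsc1* to *Tsc2*.

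Across the 12 libraries the 8 genes fell into no single pattern. *Rptor*, *Mtor* and *Tsc2* varied together, with a Pearson r of log2 CPM of 0.91 between *Rptor* and *Tsc2* and 0.86 between *Mtor* and *Rptor*. *Rictor* had an r of 0.03 with *Rptor* and -0.39 with *Akt2*, and its highest r was 0.61, with *Tsc1*. These are descriptions over 12 libraries that share scaling, the GC and length curve and the group differences. With group means removed, *Mtor* and *Rptor* had an r of 0.95 and *Rptor* and *Rictor* one of 0.38.

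The genes most like each of the 8 over the same libraries were named by the highest r among all tested genes. For *Rptor* they were *Atp6v0a1* (r = 0.998) and *Tmem179* (0.989), and for *Tsc2* *Dync1h1* (0.981) and *Vps52* (0.98). For *Akt1* they were *Ctbp1* (0.976) and *Cadm3* (0.975), and for *Akt2* *Cand2* (0.959) and *Galnt4* (0.951). For *Mtor* they were *Trappc10* (0.965) and *Emc1* (0.958), and for *Tsc1* *Slc25a38* (0.963) and *Unc119b* (0.959). *Rictor* and *Pik3r1* had less close matches, *Dopey1* (0.937) and *Gm15949* (0.934) for the former and *Lrp6* (0.95) and *Soga3* (0.918) for the latter.

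The wider pathway was followed in 112 other genes in 11 lists by role, of which 109 were tested. In *Mtmr2* KO against WT control, edgeR called 0 of the 109 (13 higher and 11 lower at an unadjusted p under 0.05, beside 9.35% and 7.9% of all genes). DESeq2 called 5 over all 12 libraries, beside 3.77% of all genes, and 1 over only these groups, beside 2.42%, and limma-voom called 0, beside 0.626%. Without 4501 edgeR called 3 (*Sesn1*, *Foxo4* and *Pik3cb*), beside 2.6% of all genes. The median log2 fold change of the 109 was 0.03, as over all genes, and -0.02 without 4503.

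With niacin against *Mtmr2* KO, edgeR called 1 of the 109, *Grb10*, with 6 higher and 28 lower at an unadjusted p under 0.05, beside 8.01% and 12.1% of all genes. DESeq2 called 14 over all 12 libraries, beside 6.42% of all genes, and 4 over only these groups, beside 2.5%, while limma-voom called 22, beside 11.6%. Without 4502 edgeR called 44, beside 23.6% of all genes, and without 4503 it called 0, beside 0.0746% of all genes. The median of the 109 was -0.14, -0.07 without 4503 and -0.06 with the correction for GC content and length. With niacin against WT control, edgeR called 0 (8 higher and 22 lower at an unadjusted p under 0.05, beside 10.1% and 14.6% of all genes), and DESeq2 called 10 over all 12 libraries, beside 7.56%. Over only these groups DESeq2 called 47, beside 37.8% of all genes, and edgeR called 46, beside 33.9%, and limma-voom called 58, beside 42.4%. Without 4502 edgeR called 31, beside 21.6% of all genes. The median was -0.07, and -0.0067 with the correction for GC content and length. In the lists below, calls and adjusted p are those of edgeR over all 12 libraries unless another fit is named. Calls by DESeq2 over all 12 libraries are given for each list, and calls by limma-voom for niacin-treated against *Mtmr2* KO mice. Genes called only by these other fits are named because of those calls, so they were chosen after their values were seen.

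*Grb10* encodes an adaptor that binds insulin and IGF1 receptors and dampens their signal, and its protein is a substrate of mTOR complex 1. It was at 98.0, 94.7, 87.6 and 82.7 CPM in WT control, 72.9, 72.0, 65.8 and 71.6 CPM in *Mtmr2* KO and 105, 98.6, 108 and 98.2 CPM with niacin. The 3 groups did not overlap, with *Mtmr2* KO lowest and niacin-treated mice highest. The log2 fold change was 0.54 with niacin against *Mtmr2* KO (SE 0.10, adjusted p = 0.0401 from edgeR), -0.36 in *Mtmr2* KO against WT control (adjusted p = 0.114) and 0.18 with niacin against WT control (adjusted p = 0.281). The call in the first of these was lost in edgeR without 4503 (0.51, adjusted p = 0.0872) or any other single library except 4502 and 4504. These fits called from 0% (such as without 4497) to 0.777% (without 4505) of all genes, beside 1.43% with all libraries. It was also lost on only the groups compared (0% of all genes called), without the filter on low counts (1.69%) and with *Xist* as a covariate for sex (0.29%). DESeq2 and limma-voom made the call. DESeq2 over all 12 libraries also called *Grb10* in *Mtmr2* KO against WT control (adjusted p = 0.0163), where the edgeR value without 4503 was -0.33.

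Among the 8 class I PI3K subunits and regulators, 0 were called by edgeR over all 12 libraries in any comparison. *Pik3ip1*, a membrane protein that inhibits PI3K and was the most abundant of the list at 33.2 CPM per kilobase, was at 79.5 to 89.9 CPM in WT control and 98.3 to 164 CPM in *Mtmr2* KO without overlap (log2 fold change 0.49, adjusted p = 0.15 from edgeR). The 164 CPM is that of 4503, and without 4503 the log2 fold change was 0.30 (adjusted p = 0.211 from edgeR). With niacin it was at 74.0 to 95.4 CPM. *Pik3cb*, which encodes the catalytic subunit p110 beta, was at 19.3 to 20.9 CPM in WT control and 13.9 to 17.5 CPM in *Mtmr2* KO (-0.42, adjusted p = 0.104 from edgeR, and -0.39 without 4503). DESeq2 called *Pik3cb* in this comparison (adjusted p = 0.0237) and, with niacin against *Mtmr2* KO, *Pik3ip1* and *Pik3cd* as lower and *Pik3r3* as higher. In the latter comparison limma-voom called the same 3 genes and *Pik3cg*, which was higher.

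Among the 9 receptors and adaptors edgeR called *Grb10* alone, and 6 were lower at an unadjusted p under 0.05 with niacin against *Mtmr2* KO, beside 12.1% of all genes. The list median was -0.41. Without 4503 there were 4 such genes, beside 7.27% of all genes, and the median was -0.35. In this comparison DESeq2 called *Grb10* as higher and *Igf1r* (adjusted p = 0.00703), *Insr* (0.0496) and *Irs2* (0.0422), which encode the IGF1 and insulin receptors and a docking protein of both, as lower, and limma-voom called *Grb10*, *Igf1r* and *Grb2*. Library 4503 was the highest of all 12 for *Insr*, at 107 CPM against 42.7 to 74.0 CPM in the other *Mtmr2* KO libraries. The edgeR log2 fold change of *Insr* was -0.78, and -0.47 without 4503 (adjusted p = 0.338), that of *Irs2* was -0.83, and -0.52 without 4503 (adjusted p = 0.303), and that of *Igf1r* was -0.83, and -0.66 without 4503 (adjusted p = 0.14 from edgeR). DESeq2 called *Irs1*, *Irs2* and *Grb2*, all lower, with niacin against WT control. The most abundant, *Gab1*, a docking protein of ErbB and Met receptors, was at 195 to 250 CPM in WT control, 182 to 242 CPM in *Mtmr2* KO and 136 to 200 CPM with niacin. Its log2 fold change with niacin against *Mtmr2* KO was -0.32 (adjusted p = 0.248 from edgeR), and -0.27 without 4503.

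Of the 8 lipid and Akt phosphatases edgeR called 0. In niacin-treated against *Mtmr2* KO mice limma-voom called *Inpp4a* (adjusted p = 0.0387), *Inpp5e* (0.0348) and *Inppl1* (0.0417), all lower, and DESeq2 called 0. Library 4503 was the highest of all for *Inpp5e*, at 38.8 CPM. Its log2 fold change was -0.51 in limma-voom and -0.29 in edgeR without 4503 (adjusted p = 0.5). In the latter fit, which called 0.0746% of all genes, *Inpp4a* was at -0.37 and *Inppl1* at -0.42, and neither was called. *Inppl1*, the inositol phosphatase SHIP2, was at 54.7 to 62.3 CPM with niacin and 78.7 to 99.1 CPM in WT control (-0.61, adjusted p = 0.0847 from edgeR and 0.0144 from DESeq2). *Inpp4b*, which removes a phosphate from a product of PI3K signalling, was at 4.71 to 6.94 CPM in WT control and 2.69 to 4.60 CPM in *Mtmr2* KO (-0.61, adjusted p = 0.15 from edgeR, and -0.62 without 4503). Of the 5 genes of class II and III PI3K, whose lipids are the substrates of myotubularins, edgeR and DESeq2 over all 12 libraries called 0. *Pik3c3* was the most abundant. *Pik3c2a* had the smallest p in *Mtmr2* KO against WT control (0.38, adjusted p = 0.327 from edgeR, and 0.43 without 4503). It was at 65.3 to 72.8 CPM in WT control and at 76.2, 139, 78.3 and 65.9 CPM in *Mtmr2* KO, the 139 CPM being in 4502, and without 4502 the log2 fold change was 0.08. It was called as higher with niacin against WT control by edgeR (adjusted p = 0.00346) and DESeq2 (3.14e-05) on only these groups and by limma-voom (0.00184), the fits with many calls.

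Of the 8 other subunits of the mTOR complexes edgeR called 0. *Prr5*, a partner of rictor in complex 2, was at 38.5 to 43.0 CPM in WT control and 22.2 to 35.3 CPM in *Mtmr2* KO (-0.44, adjusted p = 0.169 from edgeR, and -0.46 without 4503), and *Prr5l* at 5.64 to 8.17 and 2.93 to 5.51 CPM (-0.78, adjusted p = 0.117 from edgeR, and -1.004 without 4503). Neither gene overlapped between these groups. DESeq2 called *Prr5l* in this comparison (-0.80, adjusted p = 0.0246) and *Prr5* with niacin against WT control (-0.63, adjusted p = 0.0156).

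Of *Rheb*, *Rhebl1* and *Tbc1d7*, edgeR over all 12 libraries called 0. *Rheb*, the GTPase that Tsc2 acts on, was at 77.2 to 124 CPM across WT control and *Mtmr2* KO (0.02, adjusted p = 0.954 from edgeR, 0.13 without 4503 and -0.08 without 4502). *Rhebl1*, a relative of *Rheb*, was at 3.35 to 7.66 CPM in WT control, 6.17 to 11.3 CPM in *Mtmr2* KO and 3.38 to 5.30 CPM with niacin. DESeq2 called it with niacin against *Mtmr2* KO (-0.94, adjusted p = 0.0124), and edgeR gave -0.95 (adjusted p = 0.0813), and -0.79 without 4503. *Tbc1d7*, the further subunit of the Tsc complex, was called as higher with niacin against WT control in the fits with many calls (adjusted p = 0.00275 from DESeq2 and 0.00966 from edgeR on only these groups, and 0.00437 from limma-voom). Among the 6 partners of Akt, *Hsp90ab1*, a chaperone, was at 676 to 1016 CPM with niacin and 1174 to 1324 CPM in *Mtmr2* KO (-0.49, adjusted p = 0.118 from edgeR and 0.0335 from DESeq2, and -0.47 in edgeR without 4503). DESeq2 called it with niacin against WT control also, and limma-voom called it and *Akt1s1* with niacin against *Mtmr2* KO. *Aktip* had the smallest p in *Mtmr2* KO against WT control (0.47, adjusted p = 0.359 from edgeR, and 0.65 without 4503). It was at 67.6 to 82.4 CPM in WT control and at 73.2, 177, 60.3 and 94.9 CPM in *Mtmr2* KO, with 4502 far above the rest, and without 4502 the log2 fold change was 0.06.

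*Sesn1* encodes a sestrin, a stress-induced inhibitor of mTOR complex 1, and belongs to the amino acid list, of which 28 genes were tested and edgeR called 0. It was at 168 to 191 CPM in WT control, at 247, 346, 763 and 273 CPM in *Mtmr2* KO and at 180 to 228 CPM with niacin. *Mtmr2* KO libraries were above all others (log2 fold change 1.17 against WT control, adjusted p = 0.0875 from edgeR, and -0.97 with niacin against *Mtmr2* KO, adjusted p = 0.0953), and without 4503 these were 0.67 and -0.47. DESeq2 over all 12 libraries called *Sesn1* in both comparisons (adjusted p = 0.00516 and 0.0204), and over only the groups compared it called the former (adjusted p = 0.0228). The former was also called by edgeR without 4501 or 4504 (adjusted p = 0.0361 and 0.0429). DESeq2 over all 12 libraries called *Sesn2* as lower with niacin against WT control.

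*Ddit4*, another stress-induced inhibitor that acts through the Tsc complex, was at 86.2 to 108 CPM in WT control and at 143, 79.4, 878 and 138 CPM in *Mtmr2* KO, the 878 CPM being in 4503. Its log2 fold change of 1.65 (adjusted p = 0.174 from edgeR) was 0.29 without 4503. Of the 8 genes of the energy and stress list edgeR called 0, and with niacin against *Mtmr2* KO DESeq2 called *Prkaa2* and *Ddit4l* as higher and *Prkag1* as lower, and limma-voom called *Prkaa1* and *Prkaa2* as higher and *Prkag1* as lower. *Prkaa2*, a catalytic subunit of AMPK, was at 3.67 and 4.33 CPM in the treated libraries 4505 and 4508 and at 9.06 and 9.64 CPM in 4506 and 4507, against 2.98 to 3.36 CPM in *Mtmr2* KO. *Ddit4l* was at 2.69 and 1.76 CPM in 4505 and 4508 and at 5.38 and 7.31 CPM in 4506 and 4507, against 1.35 to 2.68 CPM in *Mtmr2* KO. Libraries 4506 and 4507, the highest for both genes, are those with skeletal muscle markers at 3499 and 3541 CPM, whose part in these calls was not tested. *Lamtor2*, a subunit of the lysosomal Ragulator complex, was the most abundant of the amino acid list and was at 30.9 to 60.4 CPM in *Mtmr2* KO and 42.4 to 52.1 CPM in WT control (0.02, adjusted p = 0.962 from edgeR, 0.17 without 4503 and -0.13 without 4502).

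Downstream of the core, edgeR over all 12 libraries called 0 of 14 genes for targets of mTOR complex 1 and 0 of 12 tested genes for targets of Akt and complex 2. In the former list *Rps6*, the ribosomal protein whose phosphorylation is used as a readout of the pathway, was the most abundant, at 199 to 276 CPM in WT control and 235, 934, 289 and 403 CPM in *Mtmr2* KO (1.03, adjusted p = 0.163 from edgeR, and 1.196 without 4503). The 934 CPM is that of 4502, without which the log2 fold change was 0.44. It has near-identical pseudogene copies, so its count is uncertain. In the latter *Foxo4*, a transcription factor that Akt keeps out of the nucleus, was at 149 to 165 CPM in WT control and 176 to 270 CPM in *Mtmr2* KO without overlap (0.55, adjusted p = 0.104 from edgeR and 0.0221 from DESeq2, and 0.49 in edgeR without 4503). *Ndrg1*, a target of the kinase SGK1 whose loss causes another demyelinating neuropathy, was the most abundant at 1736 to 1894 CPM in WT control, 1222 to 2045 CPM in *Mtmr2* KO and 878 to 1741 CPM with niacin (-0.02 in *Mtmr2* KO against WT control, adjusted p = 0.971 from edgeR, -0.09 without 4503 and 0.12 without 4502). Between niacin-treated and *Mtmr2* KO mice DESeq2 called *Ulk1*, a kinase that starts autophagy, as lower (adjusted p = 0.0298), and limma-voom called 7 of these genes, *Ulk1*, *Atg13*, *Tfeb*, *Foxo3* and *Gsk3a* as lower and *Eif4e* and *Eif4ebp1* as higher. Without 4503 edgeR gave -0.53 for *Ulk1*, -0.32 for *Atg13*, -0.42 for *Tfeb*, -0.51 for *Foxo3* and -0.29 for *Gsk3a*. It gave 0.18 for *Eif4e* and 0.19 for *Eif4ebp1*, where limma-voom over all libraries had 0.48 and 0.53. None of the 7 was called in that edgeR fit, which called 0.0746% of all genes. DESeq2 called *Ulk1*, *Eif4ebp2* and *Gsk3a*, all lower, in niacin-treated against WT control mice.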

How the data were processed

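RNA-seq was performed on polyA-selected RNA from sciatic nerves of 12 mice, 1 library per mouse. Per the submitters' processing notes and the methods, the authors used CASAVA 1.9 and mapped reads to GRCm38 with STAR. The authors deposited read counts per Ensembl gene, whole numbers without normalization, and tables of their DESeq2 comparisons (fold changes and p-values), of which only the gene symbols were used. The sources used here give no counting program, annotation release or strand setting.

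Differential expression was tested with edgeR 4.0.16 (R 4.3.3), using filterByExpr, TMM scaling and a two-sided quasi-likelihood test in 1 model of the 3 groups with no covariate. Genes with a Benjamini-Hochberg p under 0.05 were called. The test was checked on simulated data, but no error rate from that check is reported here. Log2 levels used a prior count of 2. Single genes and within-library ratios were compared by exact permutation tests. Those of the ratios were adjusted over 9 tests, and the 24 of single genes were not adjusted. Totals of 20763951 to 33191106 counts per library set the counting precision. Of 112 pathway genes in 11 lists, 110 matched a symbol and 109 were tested. Coordinates and lengths came from GENCODE M21, and promoters from RefSeq.

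Alternatives were DESeq2 1.42.0, limma-voom (limma 3.58.1), other scaling, filters and samples, log2 CPM of *Xist* as covariate, leaving out each library and, chosen after seeing the data, corrections for GC content and length (natural splines with 5 degrees of freedom, known for 99.3% of tested genes). The members and lists were chosen with earlier results of these data known. Pathway genes named in the text are, for each list, the most abundant per kilobase and the one with the smallest p in *Mtmr2* KO against WT control, and every gene called by edgeR over all libraries; genes called only by other fits were added after their values were seen.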

Additional observations from a re-analysis of the deposited data

Results flagged for a closer look

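In 33 sets of 4 libraries (the level of each gene and each of the 3 ratios, by group), the gap of the highest or lowest library to its neighbour was compared with the range of the set. Chance passes Dixon's limit at the 95% level in about 1 set in 20, and 2 sets did here. The log2 level of *Rictor* in WT control had a gap of 0.887 of the range, with library 4500 low at 32.5 CPM beside 41.2 to 42.4 CPM in the others. The log2 ratio of *Tsc1* to *Tsc2* counts in *Mtmr2* KO had a gap of 0.955 of the range, with library 4504 at -0.49 beside -0.01 to 0.01 in the others.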

How the results depend on the processing

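No paired analysis was possible because the groups share no replicate number. Of the 8 genes, 0 were called in *Mtmr2* KO against WT control under all 23 alternatives. With niacin against *Mtmr2* KO, edgeR called 0, and 1 was called with DESeq2 over all 12 libraries, 3 with limma-voom, 1 with the GC and length correction, beside 2.86% of all genes, and 0 to 3 with each library left out (3 without 4502, beside 23.6% of all genes, and 1 without 4504, beside 2.87%). With niacin against WT control, edgeR over all libraries called 0, and 1 was called with DESeq2 over all 12 libraries, 3 with DESeq2 or edgeR on only the groups compared, 5 with limma-voom, and 0 to 2 with each library left out (2 without 4502, beside 21.6% of all genes).

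Of the 109 pathway genes in *Mtmr2* KO against WT control, the count of 0 became 5 with DESeq2 over all 12 libraries, 1 with DESeq2 on only the groups compared, 1 without the low-count filter (beside 1.01% of all genes), and 0 to 3 with each library left out (3 without 4501, beside 2.6%). With niacin against *Mtmr2* KO, the count of 1 became 14 and 4 with DESeq2 over all libraries and over only the groups compared, 22 with limma-voom, 0 with edgeR on only the groups compared, 3 without the filter (beside 1.69% of all genes), 0 with *Xist* (0.29%), 5 with the GC and length correction (2.86%), 3 with length alone (2.06%), and 0 to 44 with each library left out (44 without 4502, beside 23.6%). With niacin against WT control, the count of 0 became 10 and 47 with DESeq2, 58 with limma-voom, 46 with edgeR on only the groups compared, and 0 to 31 with each library left out. Over all genes the counts of 46, 246 and 0 in the 3 comparisons ranged from 0 to 683, from 0 to 4180 and from 0 to 7311. The causes were not tested.

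Of 552 log2 fold changes of the 8 genes under alternatives, 514 kept sign and side of the threshold, 23 passed it with the same sign and 15 changed sign without being called. The latter were, in *Mtmr2* KO against WT control, *Mtor* (0.030 with the GC and length correction, 0.050 without 4502 and a range of -0.20 to 0.050 over libraries left out) and *Tsc2* (0.055 with the correction, 0.038 without 4502 and -0.21 to 0.038 over libraries left out). With niacin against *Mtmr2* KO they were *Akt1* (0.10 with the GC and length correction, 0.10 with GC alone, 0.0081 without 4504 and -0.19 to 0.0081 over libraries left out), *Mtor* (0.093 with the correction) and *Rictor* (0.054 without 4503 and -0.15 to 0.054 over libraries left out). With niacin against WT control they were *Akt1* (0.082 with both, 0.025 with GC alone), *Akt2* (0.10), *Mtor* (0.12) and *Tsc1* (0.021) with the correction, and *Rictor* (-0.076 with GC alone). The difference in the log2 ratio of *Rptor* to *Rictor* between niacin-treated and *Mtmr2* KO mice became 0.044 with the correction. The smallest exact p that 4 libraries against 4 can give is 0.0286.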
